A study of Mus musculus with 14 samples.

Results

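Respiratory complex I, the NADH dehydrogenase of the inner mitochondrial membrane, was followed here through the 45 genes whose symbol begins with Nduf, out of 24054 rows of the deposited count table. Of these, 38 carry subunit names and 7 carry assembly factor names (Ndufaf1 to Ndufaf7). All 45 passed the filter on low counts, among 13588 genes tested. The symbol rule leaves out the mitochondrially encoded subunits and the assembly factors with other names. One of the latter, Ndufaf8, stands in the table under its older symbol 1810043H04Rik. The rule also takes in Ndufa4, which was named for complex I and is now placed with cytochrome c oxidase, and its paralog Ndufa4l2. Without those the subunit group holds 36 genes.

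The libraries came from left ventricles of mice whose genotype is labelled C56Bl6. The Control group (5 libraries) had a standard diet for 10 weeks. The HFpEF-scr group (4 libraries) had a high-fat diet with L-NAME, an inhibitor of nitric oxide synthases, for 6 weeks, and an adeno-associated virus (AAV) with a scrambled short hairpin for 4 weeks. The HFpEF-FoxO1-sh group (5 libraries) had the same diet for 6 weeks and an AAV with a hairpin against FoxO1 for 4 weeks. HFpEF stands for heart failure with preserved ejection fraction. The control labels name no AAV, so effects of diet and of AAV cannot be told apart in comparisons with Control. The promoter and route of the AAV, and the sex and age of the mice, are not given in the sources used here. The labels do not say that each library is a separate animal, so the p-values measure the spread between these libraries.

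Complex I takes electrons from NADH, passes them through a flavin and a chain of iron-sulfur clusters to ubiquinone, and pumps protons across the inner membrane. Its parts are described as an N module that oxidises NADH, a Q module that reduces ubiquinone, and a membrane arm whose proximal and distal segments do the pumping. A small set of core subunits carries the chemistry, the accessory subunits surround and stabilise them, and assembly factors help to build the complex without staying in it. Heart muscle is dense in mitochondria, and transcripts of the complex are abundant there.

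Total counts ran from 13.17 M to 21.25 M (M, 1000000 counts) per library, and between 16094 and 16509 genes had a count. Counts of a subunit row in a library ran from 162 to 22517 and those of an assembly factor from 176 to 1597. Foxo1, the target of the hairpin, lay between 39.3 and 48.3 counts per 1000000 (CPM) in all 14 libraries. Its log2 difference between HFpEF-FoxO1-sh and HFpEF-scr was -0.04 ± 0.06 (SE), with a 95% interval from -0.17 to 0.09 and an adjusted p of 0.780 by edgeR. The knockdown that the label names was thus not seen in the level of this transcript, and HFpEF-FoxO1-sh stands here for the libraries so labelled, in every direction given. All 10 cardiomyocyte markers were present in every library. Adipocyte markers summed to at most 1.93 CPM. The atrial markers Sln and Myl7 were near 0, at means of 0.0135 and 0.291 CPM in the controls, while the natriuretic peptide gene Nppa, also of stressed ventricle, was at 133 CPM. HFpEF-scr 1 stood apart in its globin and other red cell transcripts, which summed to 6024 CPM there.

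Promoter sequences of 39 of the 45 genes, 41 windows in all, were found in RefSeq (GRCm38.p6). Each window runs from 250 bases before to 50 bases after a start site. They were searched on both strands for exact letters of 6 motifs of factors known from respiratory genes or named in the labels. AAGATGGC, the core of a YY1 motif, was in 7 of 41 windows (17.1%), against 2.75% of all 32851 windows. The palindromic NRF1 motif, in capitals in the Ndufaf4 stretch printed here, was in 3 (7.32%, against 0.971%), and TGACGTCA, a cyclic AMP response element (CRE), in 3 (7.32%, against 1.79%). The ERR letters AAGGTCA were in 7.32% against 4.72%, and the ETS letters CCGGAAG in 12.2% against 8.86%. GTAAACA, a FoxO motif, was in 1 window, that of Ndufaf1 (2.44%, against 3.65%). The median GC content was 59.3% in these windows and 52.7% in all windows. No searched motif overlapped another in a window printed here.

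The 7 windows with the YY1 letters all belong to subunits, but so do 35 of the 41 windows searched, and only 6 are of assembly factors. These 7 windows hold the letters at a similar place, starting between bases 23 and 39 after the start site. In all 7 the ATG within the letters is the annotated start codon, so they also overlap the context of translation start. These stretches are shown because they are the most widely shared sequence feature found among the 45 genes, with the motif in capitals, 5′ to 3′ on the gene's strand.
Ndufa3 (chr7:3617383-3617412, plus strand): gccgccaagaacAAGATGGCcgggagtaag
Ndufa9 (chr6:126849098-126849127, minus strand): gcattgtgggagAAGATGGCggccgccgtc
Ndufb8 (chr19:44555393-44555416, minus strand): gcggagaaggtgAAGATGGCtgcc
Ndufc1 (chr3:51408916-51408945, minus strand): agcctgcggaacAAGATGGCgccgtccgta
Ndufs4 (chr13:114388045-114388071, minus strand): tttgcctacaggAAGATGGCggcggtc
Ndufs6 (chr13:73328433-73328461, minus strand): agggtcaccggcAAGATGGCggcggtgct
Ndufs7 (chr10:80249461-80249490, plus strand): aaggccgaggccAAGATGGCggcgctggcg

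The NRF1 letters were in the windows of Ndufa11, Ndufaf4 and Ndufaf5. Ndufa11 is shown because its transcript had the largest fall among the 45 genes and its window holds both a CRE and an NRF1 motif. Ndufaf4 is shown as an assembly factor with the same NRF1 letters. Each stretch ends at the base before the RefSeq start site, with the motifs in capitals. A match describes letters and is not evidence that a factor binds.
Ndufa11 (chr17:56717592-56717761, plus strand): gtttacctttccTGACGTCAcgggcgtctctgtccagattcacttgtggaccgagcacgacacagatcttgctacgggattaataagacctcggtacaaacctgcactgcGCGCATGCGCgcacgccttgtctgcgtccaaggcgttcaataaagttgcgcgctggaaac
Ndufaf4 (chr4:24897953-24898082, plus strand): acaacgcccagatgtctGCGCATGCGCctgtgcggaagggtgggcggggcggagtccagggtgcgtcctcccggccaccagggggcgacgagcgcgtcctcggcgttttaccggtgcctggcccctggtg

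Subunits and assembly factors differed most in their level. Per kilobase of transcript, the median over the 38 subunits was 319 CPM and that over the 7 assembly factors 18.1 CPM. The level of each gene is the mean of its 3 group means. Of the subunits, 30 lay above 200 CPM per kilobase and no assembly factor did. Ndufb9, a subunit of the distal arm, had the highest level at 767 CPM per kilobase, and Ndufb8, of the same arm, was at 691. Among genuine complex I subunits the lowest were Ndufs4 at 79.2 and Ndufc1 at 90.5 CPM per kilobase. Ndufaf1, part of the intermediate assembly complex with Ecsit and Acad9, was the highest assembly factor at 31.1, and Ndufaf3 the lowest at 12.2. With the transcript lengths used here, Ndufa4l2, at 15.0, was the only row with a subunit name that fell within the range of the assembly factors. Its paralog Ndufa4 had 660.5 CPM per kilobase, among the highest levels.

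**Figure D1:**
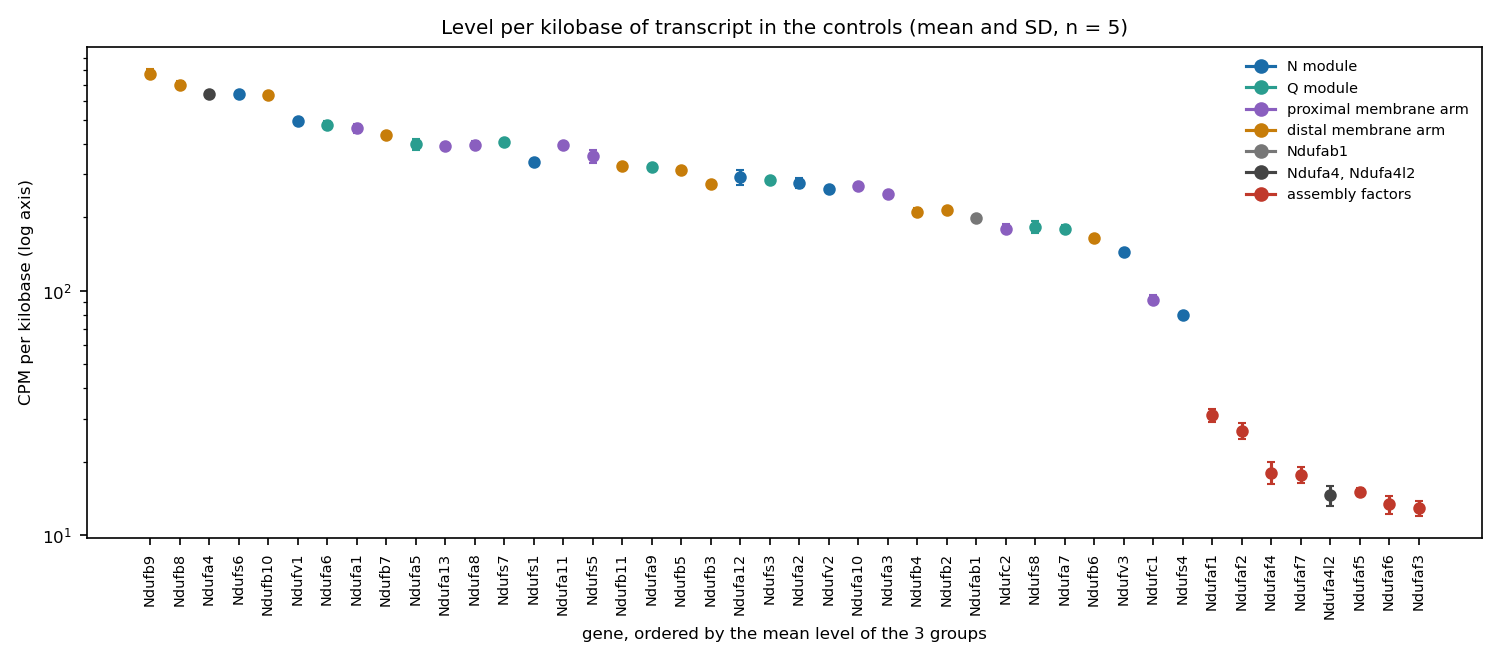
Level of 44 Nduf genes per kilobase of transcript in the 5 control libraries (points, mean; bars, SD; log axis), coloured by module and ordered by the mean level of the 3 groups. The assembly factors and Ndufa4l2 occupy the low end, below every other subunit.

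The order of the levels was finely graded rather than stepped within each class. Of the 44 pairs of neighbours in the order of control levels, 31 had overlapping control ranges. Lengths were those of the principal transcript with the best support in GENCODE, the shortest where several tied, and the choice mattered for Ndufab1 and Ndufb2. With the longest principal transcript these fell to 84.3 and 22.2 CPM per kilobase, from 207 and 213. At those values Ndufb2 lay below Ndufs4 and within the range of the assembly factors, and Ndufab1 lay between Ndufs4 and Ndufc1. The spread between libraries of a group was small. The coefficient of variation had a median of 3.6% over the subunits and 7.0% over the assembly factors, so the same fold change was measured less precisely in the latter. Reads shared with other genes could affect some values. Estimated counts were not whole in 13 of 14 libraries for Ndufs1, Ndufs5 and Ndufaf7, in 4 for Ndufa2 and in 3 for Ndufa7. Of the exon bases of Ndufaf2, 65.6% overlap an antisense gene, as do 39.0% for Ndufb6, and whether counting used strand is not given in the sources used here. Ndufb9 and Ndufb8, the highest per kilobase, share 19.5% and 4.26% of their exon bases with a gene on the same strand.

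The first comparison asked how the diet with scrambled hairpin differed from Control. In HFpEF-scr 3 of the 45 genes fell and none rose: the accessory subunit Ndufa11, the core subunit Ndufs7 and the assembly factor Ndufaf3. By edgeR's quasi-likelihood test 7.37% of all genes tested were called, 3.66% higher and 3.70% lower. The 3 falls among 45 members are a larger share than the lower background, on a count of 3 genes. By unadjusted p under 0.05, 11 subunits and 2 assembly factors were lower, against 11.6% of all genes. No member was called higher, 1 had such a p in that direction (Ndufa4l2, against 12.0% of all genes), and DESeq2 and limma voom called 0 higher as well. Fewer cells of a type and less RNA per cell cannot be told apart in such bulk tissue.

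Ndufa11 is an accessory subunit of the membrane arm that lies where complex I meets complex III in supercomplexes (gene at chr17:56717767-56722141, plus strand, GRCm38). It was at 219, 218, 209.7, 214 and 219 CPM in Control 1 to 5, at 184, 168, 177 and 178 in HFpEF-scr 1 to 4, and at 204, 204, 194, 198 and 171 in HFpEF-FoxO1-sh 1 to 5. Every library on the high-fat diet with L-NAME lay below every control, and 4 of the 5 HFpEF-FoxO1-sh libraries lay above every HFpEF-scr library. Its log2 fold change in HFpEF-scr against Control was -0.29 ± 0.05 (SE; adjusted p = 0.00274 by edgeR), a fall with a 95% interval from -0.39 to -0.19. The call held without any single library.

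Ndufs7 is the core subunit that carries the last iron-sulfur cluster before ubiquinone (chr10:80249121-80256794, plus strand). Its levels were 312, 304, 309, 307 and 313 CPM in the controls, 279.8, 249, 246 and 265 in HFpEF-scr, and 290.4, 285, 276, 285 and 248 in HFpEF-FoxO1-sh. The controls were tightly grouped and again above all 9 other libraries, while the 2 HFpEF groups overlapped. It fell by 0.25 ± 0.05 on the log2 scale in HFpEF-scr (adjusted p = 0.00706 by edgeR), and the call held without any single library. The other core subunits of the nuclear genome were not called in this comparison. Among them the log2 differences were 0.07 for Ndufs1, -0.09 for Ndufs3, -0.12 for Ndufs8, -0.02 for Ndufv1 and 0.01 for Ndufv2.

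Ndufaf3, an assembly factor of the early intermediate that holds the Q module (chr9:108565537-108567434, minus strand), was at 18.6, 17.4, 20.2, 18.9 and 20.8 CPM in the controls. It was at 17.7, 15.6, 15.7 and 16.9 in HFpEF-scr, and at 18.5, 19.5, 18.5, 19.4 and 18.7 in HFpEF-FoxO1-sh. One HFpEF-scr library lay above the lowest control, and no HFpEF-scr library reached the HFpEF-FoxO1-sh range. It fell by 0.22 ± 0.06 on the log2 scale in HFpEF-scr, close to the threshold (adjusted p = 0.0454 by edgeR). The call was lost in 6 of 9 refits that each left out 1 library (Control 3, 4 or 5, or HFpEF-scr 2, 3 or 4), with adjusted p between 0.0622 and 0.123. The fit with the replicate number as a block gave 0.114.

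Across the group, 30 of 38 subunits and 6 of 7 assembly factors had a log2 difference below 0 in HFpEF-scr. The median was -0.05 over subunits and -0.03 over assembly factors, against 0.00 over all genes tested, of which 50.4% lay above 0. In 6 subunits (Ndufa11, Ndufb2, Ndufb5, Ndufb7, Ndufs3 and Ndufs7) every HFpEF-scr library was below every control, against 4.64% of all genes that separated in this direction. No member separated upwards, against 4.29% of all genes. Members share libraries and are not replicates. When HFpEF-scr 1 was left out, 5 members were called instead of 3, and one of them, Ndufs1, was higher (log2 difference 0.15, adjusted p = 0.0124 by edgeR, against 0.448 with all libraries). Ndufs1, the largest core subunit of the N module (chr1:63143596-63176833, minus strand), was at 774 CPM in HFpEF-scr 1 and at 945, 975 and 990.4 in HFpEF-scr 2 to 4. The same library had the high red cell sum, whose part in this value was not tested.

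**Figure D2:**
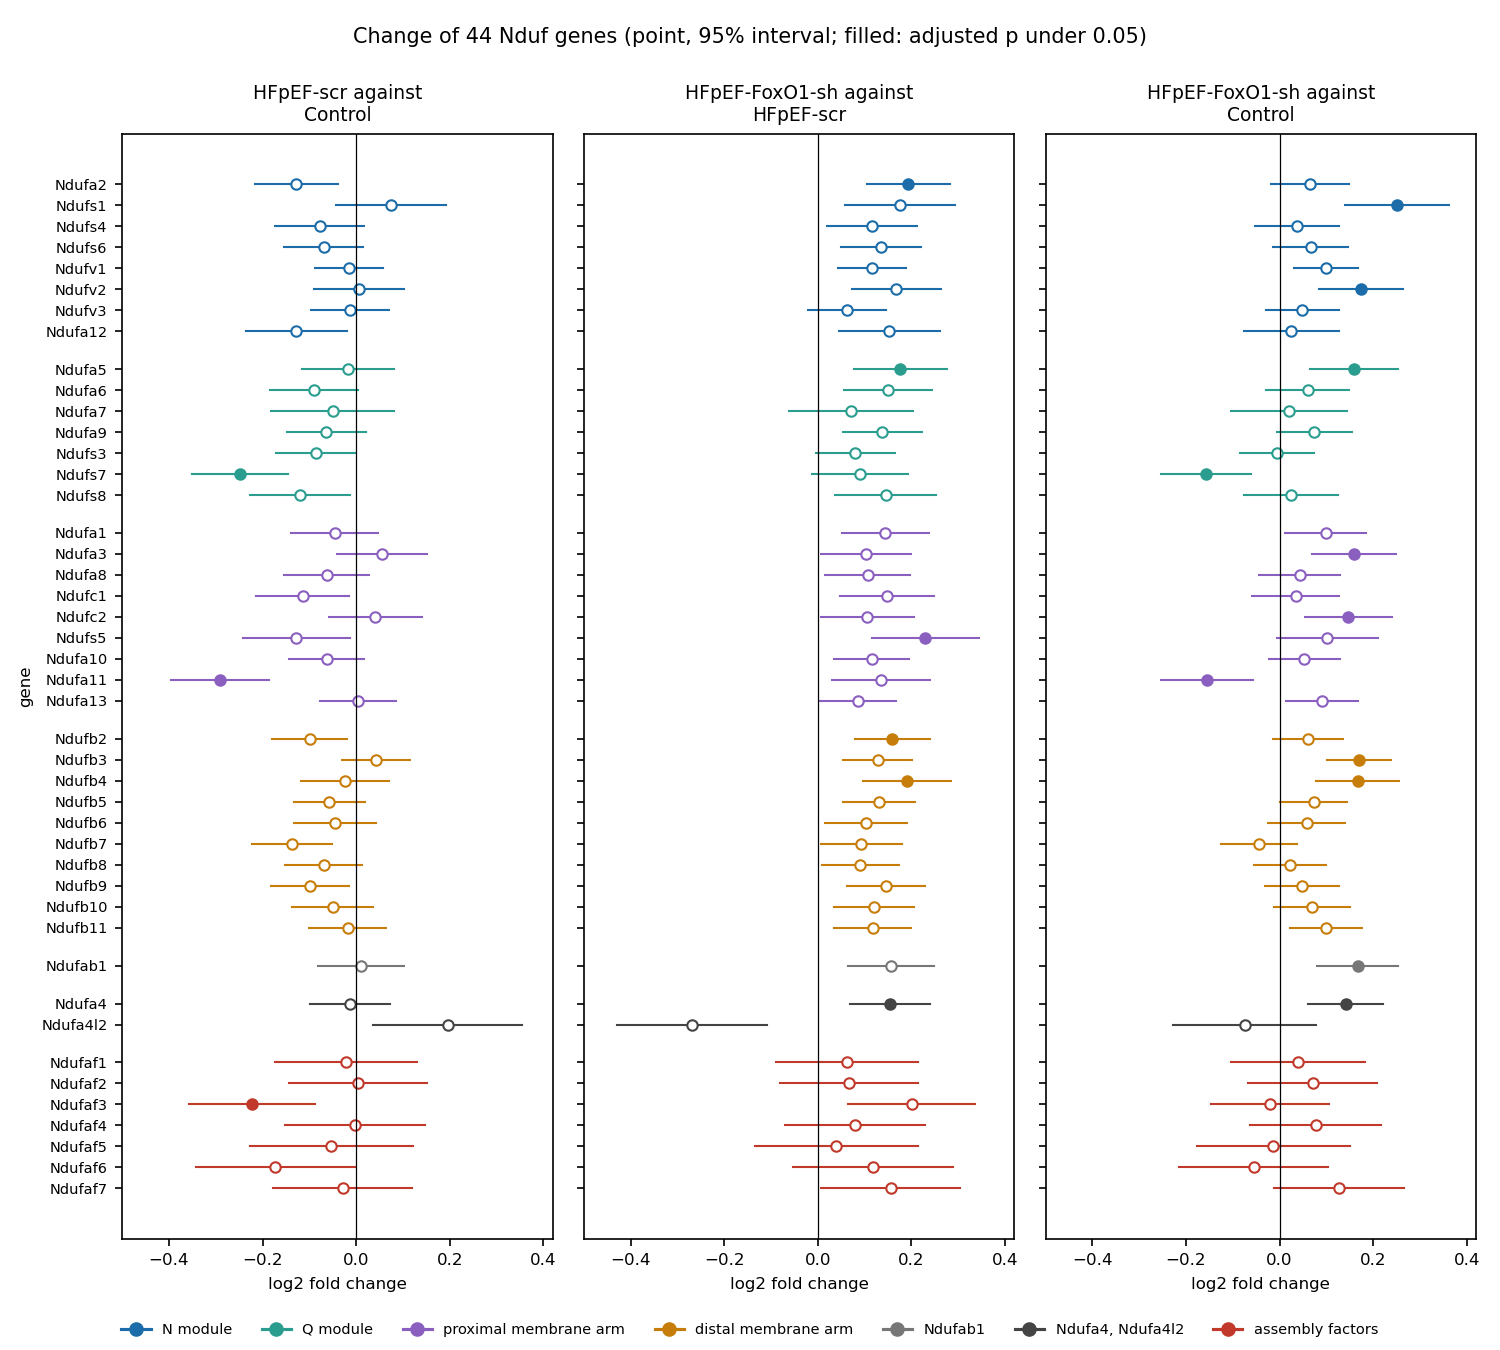
Log2 fold change of 44 of the 45 Nduf genes (rows, grouped by module) in the 3 comparisons, as a point with its 95% interval; filled points have an adjusted p under 0.05 by edgeR. In the middle panel Ndufa4l2 is the only point to the left of 0, while Ndufa11 and Ndufs7 are lower in both comparisons with Control.

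The second comparison set the libraries labelled with the FoxO1 hairpin against those with the scrambled hairpin, on the same diet. Here 6 of the 45 genes rose and none fell, all 6 with subunit names: Ndufs5, Ndufa2, Ndufb4, Ndufa5, Ndufb2 and Ndufa4. Over all genes 3.58% were called, 1.32% higher and 2.26% lower, so the members' rises were a larger share than the background. No assembly factor was called by edgeR, DESeq2 or limma voom, and 2 of 7 were higher with an unadjusted p under 0.05. No subunit was called lower by these tools, and 1, Ndufa4l2, was lower with such a p, against 10.4% of all genes. The rises were small, between 0.15 and 0.23 on the log2 scale.

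The count of 6 rested on single libraries. It was 2 without HFpEF-scr 1, 1 on leaving out HFpEF-scr 2, 2 on leaving out HFpEF-scr 3 and 10 on leaving out HFpEF-scr 4. It was 0 without HFpEF-FoxO1-sh 1, 2 without HFpEF-FoxO1-sh 2, and 1 without HFpEF-FoxO1-sh 3 or without HFpEF-FoxO1-sh 4. It was 9 without HFpEF-FoxO1-sh 5. Among the tools DESeq2 called 20 and limma voom 8, all higher, and a fit of these 2 groups alone called 2. The sizes moved less than the calls: the median over subunits stayed between 0.12 and 0.14 in those 9 refits. By unadjusted p, 33 of 38 subunits were higher with a p under 0.05, against 9.34% of all genes.

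Ndufs5, an accessory subunit on the outer face of the proximal membrane arm (chr4:123712710-123718202, minus strand), had the largest rise. It was at 162, 175, 184 and 164 CPM in HFpEF-scr, at 212, 203, 204, 198 and 186 in HFpEF-FoxO1-sh, and at 197, 193, 189.6, 168 and 187 in the controls. The 2 HFpEF groups did not overlap, with the lowest hairpin library just above the highest scrambled one, and the controls spanned both. Its log2 fold change was 0.23 ± 0.05 (adjusted p = 0.0310 by edgeR). The call was lost without HFpEF-scr 1, 2 or 4 or HFpEF-FoxO1-sh 1, 2, 3 or 4, with adjusted p up to 0.0848.

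Ndufb4, an accessory subunit of the distal arm (chr16:37647170-37654453, minus strand), was at 207, 199.7, 189 and 211 CPM in HFpEF-scr and at 241, 229, 234, 217 and 229 in HFpEF-FoxO1-sh. The controls were at 208, 209, 199, 195 and 215 CPM. All 5 libraries with the FoxO1 hairpin lay above all 9 others. The log2 fold change was 0.19 ± 0.04 against HFpEF-scr (adjusted p = 0.0301 by edgeR) and 0.17 ± 0.04 against Control (adjusted p = 0.0158), and these 2 values share the hairpin libraries. The first call was lost without HFpEF-scr 2 or 3 or HFpEF-FoxO1-sh 1, 2 or 3 (adjusted p up to 0.0797), and the second held without any single library.

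Ndufa5, an accessory subunit of the Q module, was at 331, 347, 327 and 371 CPM in HFpEF-scr, at 399.9, 405, 383, 377 and 379 in HFpEF-FoxO1-sh and at 353, 357, 355, 318 and 358 in the controls. Ndufa4 was at 366, 402, 382 and 399 CPM in HFpEF-scr, at 444, 440.4, 436, 429 and 405 in HFpEF-FoxO1-sh and at 397, 393, 404, 382 and 378 in the controls. In both genes all hairpin libraries exceeded all others, by a narrow margin at the edge. The log2 fold change against HFpEF-scr was 0.18 ± 0.05 for Ndufa5 (adjusted p = 0.0485 by edgeR) and 0.15 ± 0.04 for Ndufa4 (adjusted p = 0.0440). Against Control it was 0.16 ± 0.04 for Ndufa5 (adjusted p = 0.0256) and 0.14 ± 0.04 for Ndufa4 (adjusted p = 0.0214). The calls against HFpEF-scr were lost without any single library other than HFpEF-scr 4 for Ndufa5 (adjusted p up to 0.111), and other than HFpEF-scr 4 or HFpEF-FoxO1-sh 5 for Ndufa4 (up to 0.108). Those against Control were lost without HFpEF-FoxO1-sh 1 or 2 for both, without Control 4 for Ndufa5 (up to 0.0654) and without Control 5 for Ndufa4 (up to 0.0586).

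Ndufa2, a subunit of the N module, rose by 0.19 ± 0.04 on the log2 scale (adjusted p = 0.0227 by edgeR), from 139 to 151 CPM in HFpEF-scr to 159 to 172 in HFpEF-FoxO1-sh. Ndufb2, of the distal arm, rose by 0.16 ± 0.04 (adjusted p = 0.0310 by edgeR), from 88.95 to 93.2 CPM to between 97.8 and 104. Neither pair of groups overlapped. For Ndufa2 the call was lost without HFpEF-scr 3 or HFpEF-FoxO1-sh 1 or 4 (adjusted p up to 0.0634). For Ndufb2 it was lost without HFpEF-scr 1 or 2 or HFpEF-FoxO1-sh 1, 2, 3 or 4 (up to 0.0771).

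**Figure D3:**
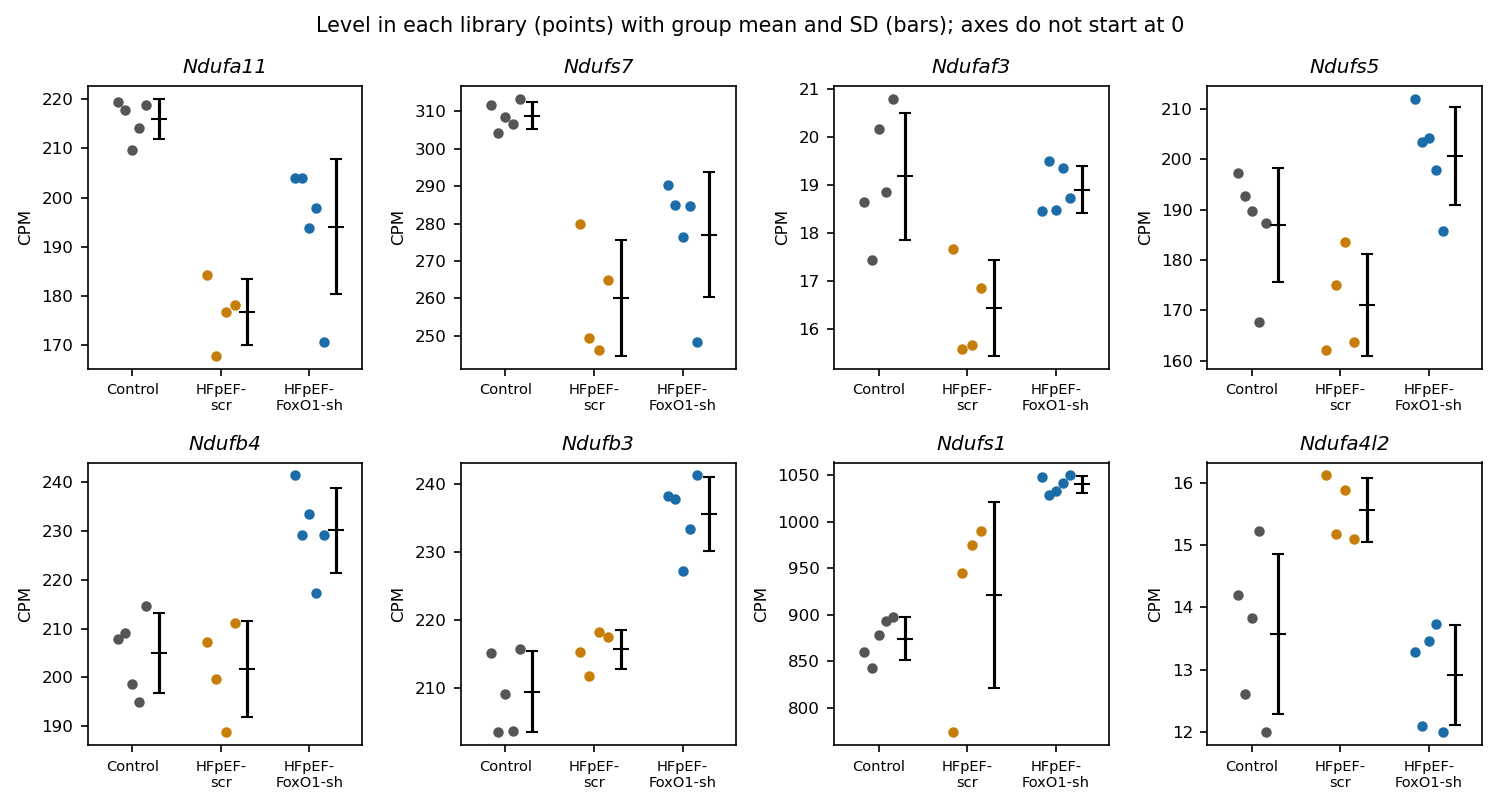
CPM of 8 Nduf genes in each library (points) with the mean and SD of each group (bars); the vertical axes do not start at 0. The controls of Ndufa11 and Ndufs7 lie above all other libraries, the HFpEF-FoxO1-sh libraries of Ndufb4, Ndufb3 and Ndufs1 lie above all others, and HFpEF-scr 1 is the low point of Ndufs1.

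Across the modules the difference was even in size. All 36 subunits of complex I proper had a log2 difference above 0, from 0.06 for Ndufv3 to 0.23 for Ndufs5. The median was 0.14 in the N module (8 genes), 0.14 in the Q module (8 genes), 0.12 in the proximal arm (9 genes) and 0.12 in the distal arm (10 genes). Over the 38 subunits it was 0.13 and over the 7 assembly factors 0.08, against 0.00 over all genes tested, of which 51.3% lay above 0. All 7 assembly factors were also above 0, from 0.04 for Ndufaf5, which modifies Ndufs7, to 0.20 for Ndufaf3 (95% interval from 0.07 to 0.34, adjusted p = 0.0870 by edgeR). In 18 subunits and in Ndufaf3 every hairpin library was above every scrambled one, against 4.11% of all genes in that direction, and in Ndufa4l2 every one was below, against 4.23%. The comparison uses the same HFpEF-scr libraries as the first, so its signs are not independent of the signs there.

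Ndufa4l2 stood apart from this direction. It was at 16.1, 15.2, 15.9 and 15.1 CPM in HFpEF-scr, at 13.3, 12.1, 13.5, 13.7 and 12.00 in HFpEF-FoxO1-sh, and at 14.2, 12.6, 13.8, 15.2 and 12.00 in the controls. The scrambled libraries lay above all of those labelled with the FoxO1 hairpin, and Control 4 lay within their range. Its log2 difference of -0.27 ± 0.08 was not called (adjusted p = 0.0601 by edgeR). It had the largest absolute value of the 45 genes in this comparison, at one of the lowest levels.

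The third comparison set the FoxO1 hairpin on the diet against Control. In it 9 of the 45 genes rose (Ndufs1, Ndufv2, Ndufb3, Ndufb4, Ndufab1, Ndufa3, Ndufa5, Ndufc2 and Ndufa4) and 2 fell (Ndufs7 and Ndufa11). Over all genes 13.0% were called, 6.68% higher and 6.28% lower. The 9 rises among 45 members were a larger share than the background and the 2 falls a smaller one. No assembly factor was called by edgeR, DESeq2 or limma voom, and 0 of 7 had an unadjusted p under 0.05. Of the 38 subunits 15 were higher and 2 lower with such a p, against 13.8% and 13.2% of all genes. The count of 11 became 7 without Control 2 and 7 without HFpEF-FoxO1-sh 3.

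Ndufs1 had the largest rise. It was at 860.4, 843, 878, 894 and 897 CPM in the controls and at 1047, 1029, 1033, 1041 and 1049.6 in HFpEF-FoxO1-sh. These 2 groups were far apart relative to their spread, with an SD of 22.8 and 9.15 CPM. The log2 fold change was 0.25 ± 0.05 (adjusted p = 0.00550 by edgeR), with a 95% interval from 0.14 to 0.36. Ndufb3, of the distal arm, was at 215, 203, 209, 204 and 216 CPM in the controls, at 215, 212, 218 and 217 in HFpEF-scr and at 238, 238, 227, 233 and 241 in HFpEF-FoxO1-sh. All hairpin libraries exceeded all others, and it had the lowest p of the 45 genes here (0.17 ± 0.03, adjusted p = 0.00305 by edgeR). Both calls held without any single library.

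The other rises were of similar size. Ndufv2, an iron-sulfur core subunit of the N module, rose from 445 ± 10.9 to 501 ± 16.6 CPM (mean ± SD, n = 5 each; log2 fold change 0.17 ± 0.04, adjusted p = 0.0139 by edgeR). Ndufab1, the mitochondrial acyl carrier protein that also serves lipoic acid synthesis, rose from 281 ± 4.20 to 316 ± 17.6 CPM (0.17 ± 0.04, adjusted p = 0.0144 by edgeR). Both calls held without any single library. Ndufa3, of the proximal arm, rose by 0.16 ± 0.04 (adjusted p = 0.0222 by edgeR) and Ndufc2, of the same arm, by 0.15 ± 0.04 (adjusted p = 0.0377). The call of Ndufa3 was lost without Control 2 or 3 or HFpEF-FoxO1-sh 3 or 4 (adjusted p up to 0.0578). That of Ndufc2 was lost without any single library other than Control 1 or HFpEF-FoxO1-sh 5 (up to 0.0964).

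Ndufa11 and Ndufs7 were below their control levels in this group as well, with the per-library values given above. Ndufa11 fell by 0.15 ± 0.05 on the log2 scale (adjusted p = 0.0377 by edgeR) and Ndufs7 fell by 0.16 ± 0.05 (adjusted p = 0.0323). In each, HFpEF-FoxO1-sh 5 was the lowest library of its group. The call of Ndufa11 was lost without Control 1, 2, 4 or 5 or HFpEF-FoxO1-sh 3, 4 or 5 (adjusted p up to 0.0762), and that of Ndufs7 without Control 1, 2, 3 or 5 or HFpEF-FoxO1-sh 3 or 5 (up to 0.0682). Against HFpEF-scr their log2 differences were 0.14 (95% interval from 0.03 to 0.24, adjusted p = 0.130 by edgeR) and 0.09 (from -0.01 to 0.19, adjusted p = 0.318). Without HFpEF-FoxO1-sh 5 that of Ndufa11 was 0.18 and was called (adjusted p = 0.0263 by edgeR).

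Over the whole group 33 of 38 subunits and 4 of 7 assembly factors lay above 0 against Control. The medians were 0.07 and 0.04, against 0.00 over all genes, of which 49.2% lay above 0. In 11 subunits every hairpin library was above every control, against 6.62% of all genes in that direction, and in Ndufa11 and Ndufs7 every one was below, against 5.53%. Among the 7 nuclear core subunits 2 rose (Ndufs1 and Ndufv2) and 1 fell (Ndufs7). Among the others the log2 difference was 0.10 for Ndufv1, which holds the flavin (adjusted p = 0.0515 by edgeR), -0.01 for Ndufs3 and 0.02 for Ndufs8. Of the 45 genes, 30 were called in no comparison, and the share of all genes tested that were called in none was not counted.

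The assembly factors as a class showed wider intervals than the subunits. The median SE of a log2 difference between HFpEF-FoxO1-sh and HFpEF-scr was 0.07 for them and 0.04 for subunits. Besides Ndufaf3, which was called once, the values of the 6 others in the 3 comparisons lay between -0.17 and 0.16. Ndufaf6 was at -0.17 in HFpEF-scr against Control (95% interval from -0.34 to -0.00, adjusted p = 0.206 by edgeR). Ndufaf7, a methyltransferase, was at 0.16 in the second comparison (from 0.01 to 0.30, adjusted p = 0.231 by edgeR). For Ndufaf1 the values were -0.02, 0.06 and 0.04, for Ndufaf2 0.00, 0.07 and 0.07, for Ndufaf4 -0.00, 0.08 and 0.08, and for Ndufaf5 -0.05, 0.04 and -0.01, in the order in which the comparisons are given. The summed CPM of the 7 assembly factors was 1.67% to 1.83% of that of the 36 subunits in the controls, 1.64% to 1.80% in HFpEF-scr and 1.67% to 1.76% in HFpEF-FoxO1-sh. These ranges overlap.

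Assembly factors of complex I with other names gave more calls in the first comparison, where 3.66% of all genes tested were called higher and 3.70% lower. Of 11 tested, 4 fell in HFpEF-scr against Control and none rose: Ecsit by 0.21 ± 0.04 and Acad9 by 0.20 ± 0.05, partners of Ndufaf1, Tmem70 by 0.20 ± 0.04, which also serves ATP synthase, and Nubpl by 0.37 ± 0.09, which delivers iron-sulfur clusters (adjusted p = 0.00876, 0.0237, 0.0132 and 0.0277 by edgeR). Nubpl rose by 0.39 ± 0.10 in HFpEF-FoxO1-sh against HFpEF-scr (adjusted p = 0.0351 by edgeR), with means of 10.1, 7.82 and 10.3 CPM in Control, HFpEF-scr and HFpEF-FoxO1-sh. The 10 others were not called there, and 0 of 11 were called in HFpEF-FoxO1-sh against Control. Over all genes tested 1.32% were called higher and 2.26% lower in the second comparison, and 6.68% and 6.28% in the third. Of 14 genes of iron-sulfur cluster supply, Iba57 alone was called, higher in both HFpEF groups than in Control (0.30 ± 0.07 and 0.33 ± 0.07, adjusted p = 0.0255 and 0.00674 by edgeR). Of 12 regulators of respiratory genes, Tfb2m, a mitochondrial transcription factor, rose by 0.23 ± 0.05 (adjusted p = 0.00528 by edgeR) and the coactivator Pprc1 fell by 0.23 ± 0.07 (adjusted p = 0.0338), both in HFpEF-FoxO1-sh against Control, and none was called in the other comparisons.

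The other enzymes of the respiratory chain showed values close to those of complex I. Over 44 genes of complexes II to V the median log2 difference was -0.06, 0.14 and 0.09 in the 3 comparisons, with 1 gene higher and 6 lower, 18 higher and none lower, and 13 higher and 2 lower. The shares called over all genes tested were 3.66% higher and 3.70% lower, 1.32% and 2.26%, and 6.68% and 6.28%. The lower genes of the first comparison included Cox7a1 at -0.33 ± 0.04 (adjusted p = 0.000367 by edgeR), a heart and muscle isoform of complex IV. The summed CPM of the 36 complex I subunits was between 0.341 and 0.355 of that of complexes II to V in the controls, between 0.342 and 0.355 in HFpEF-scr and between 0.346 and 0.353 in HFpEF-FoxO1-sh. These ranges overlap too.

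**Figure D4:**
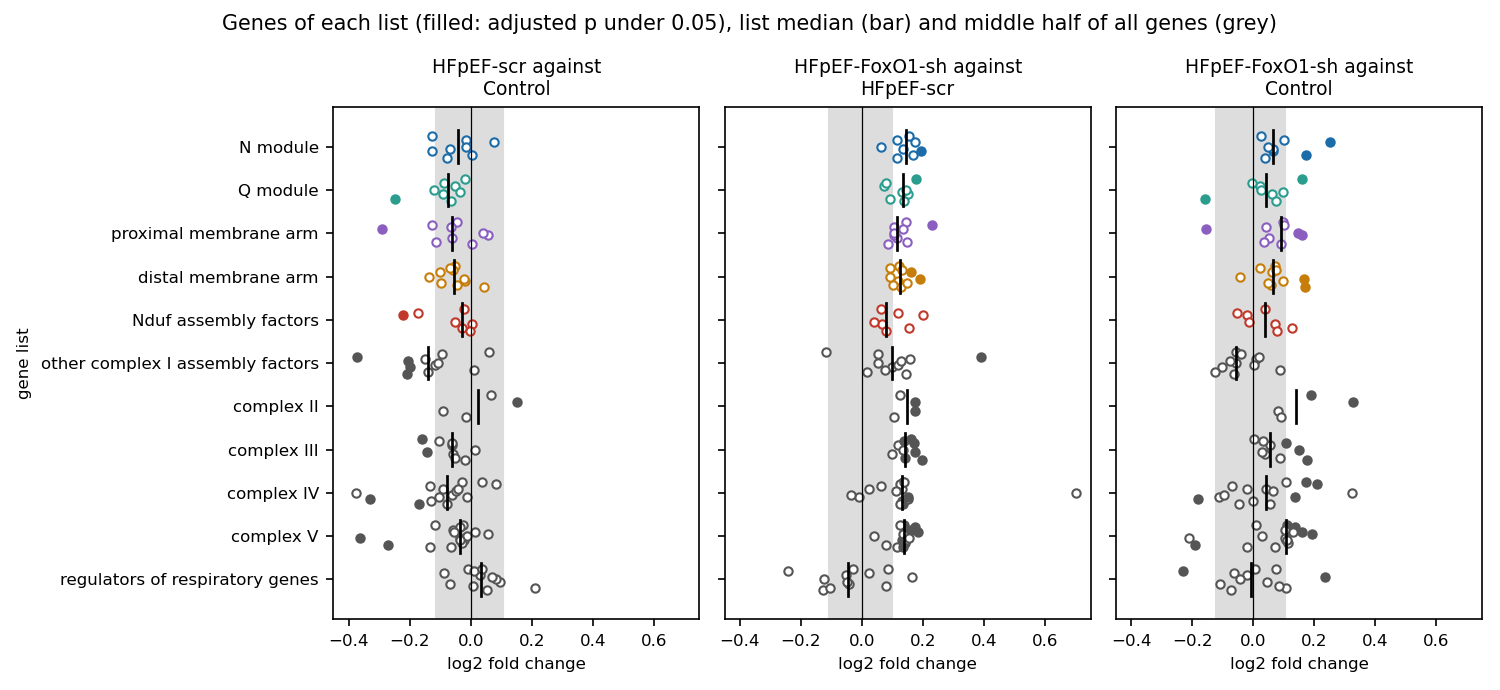
Log2 fold change of each gene (points; filled, adjusted p under 0.05 by edgeR) by module or gene list in the 3 comparisons, with the list median (black bar) and the middle 50% of all genes tested (grey). Ndufab1, Ndufa4 and Ndufa4l2 are not drawn. In the middle panel the medians of all 4 complex I modules and of complexes II to V lie to the right of the grey band, and that of the Nduf assembly factors lies within it.

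Electrons also reach ubiquinone by routes that bypass complex I, and Etfdh, on the route from fatty acid oxidation, differed more from Control than any Nduf gene did. Etfdh, the ubiquinone reductase of the electron transfer flavoprotein, was at 727 ± 48.2 CPM in Control, 956 ± 58.1 in HFpEF-scr and 1063 ± 19.3 in HFpEF-FoxO1-sh (mean ± SD, n = 5, 4 and 5). Its log2 fold change against Control was 0.40 ± 0.05 in HFpEF-scr (adjusted p = 0.000191 by edgeR) and 0.55 ± 0.05 in HFpEF-FoxO1-sh (adjusted p = 3.94e-06). Etfa, a subunit of that flavoprotein, rose by 0.15 ± 0.04, 0.17 ± 0.04 and 0.33 ± 0.03 in the 3 comparisons (adjusted p = 0.0182, 0.0199 and 2.10e-05 by edgeR). Etfb, the other subunit, was at 0.11 ± 0.05 and 0.15 ± 0.05 in the first and second comparison (adjusted p = 0.157 and 0.0803 by edgeR) and rose by 0.27 ± 0.04 in the third (adjusted p = 0.00113). In HFpEF-FoxO1-sh against HFpEF-scr Etfdh was at 0.15 ± 0.05 (adjusted p = 0.0903 by edgeR), so all 3 lay within the range of the Nduf genes there. Other routes into ubiquinone moved both ways. Of 7 genes tested on such routes, these 3 included, 2 rose and 2 fell in the first comparison. In the second 2 rose (Etfa and Dhodh) and none fell, and in the third 4 rose and 1 fell. Over all genes tested 3.66% were called higher and 3.70% lower in the first comparison. It was 1.32% and 2.26% in the second, and 6.68% and 6.28% in the third. Prodh was at -0.58 ± 0.14 and Dhodh at -0.26 ± 0.06 in the first (adjusted p = 0.0259 and 0.0157 by edgeR). In the second Dhodh rose by 0.29 ± 0.06 (adjusted p = 0.0163 by edgeR) and Prodh was at 0.51 ± 0.15 (adjusted p = 0.0628). Gpd2 was at -0.28 ± 0.08 in the third (adjusted p = 0.0266 by edgeR).

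In sum over the 36 subunits, complex I transcripts made up 1.18% to 1.22% of all counts in the controls, 1.15% to 1.19% in HFpEF-scr and 1.21% to 1.29% in HFpEF-FoxO1-sh. In CPM the sums were 11745 to 12328, 11393 to 12008 and 12302 to 13193. The 2 HFpEF groups did not overlap, and each overlapped with the controls. Markers of cell types moved between the same groups. The 10 cardiomyocyte markers summed to 115135 to 123790 CPM in Control, 104052 to 113661 in HFpEF-scr and 108180 to 119676 in HFpEF-FoxO1-sh, and 3 of 10 (Myh6, Myl2 and Myl3) fell in the first comparison, none was called in the second and Myl3 fell in the third. In the second comparison 9 of 10 lay above 0, as the complex I subunits did, with a median log2 difference of 0.07. Among them were Tnni3 at 0.14 (95% interval from 0.05 to 0.23, adjusted p = 0.0754 by edgeR) and Myh6 at 0.13 (from 0.03 to 0.23, adjusted p = 0.137). The 9 fibroblast markers summed to 944 to 1097, 993 to 1143 and 732 to 926 CPM, with 2 higher in the first comparison, 3 lower in the second and 3 lower in the third. The 7 macrophage markers summed to 166 to 222, 153 to 207 and 118 to 147 CPM, with 0, 1 and 6 lower. Of 8 markers of pericytes and smooth muscle 3 were higher in the first comparison and none was called in the others. In the second comparison 7 of 8 lay below 0, among them Rgs5 at -0.23 (95% interval from -0.37 to -0.09, adjusted p = 0.0619 by edgeR). Of 8 endothelial markers Pecam1 and Flt1 rose in the first comparison, Pecam1 fell by 0.20 ± 0.05 in the second (adjusted p = 0.0383 by edgeR), and Flt1 rose and Cdh5 fell in the third. The list was mixed in sign, with 4 above 0 and 4 below in the first comparison, and 3 above and 5 below in each of the others. The endothelial sum was 1667 CPM in HFpEF-scr 1 and between 1214 and 1343 in the other 13 libraries. Beside these marker counts, 3.66% of all genes tested were called higher and 3.70% lower in the first comparison. The shares were 1.32% and 2.26% in the second and 6.68% and 6.28% in the third. The part of the marker shifts in the complex I values was not tested. The mean log2 CPM of 16 immediate early genes, a class induced fast by many stimuli, was highest in HFpEF-scr 1 and 2, at 7.02 and 7.44. With that score as a covariate 1 of the 6 calls of the second comparison was made, and without both of these libraries none was, while the median over subunits was 0.12 in each case.

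**Figure D5:**
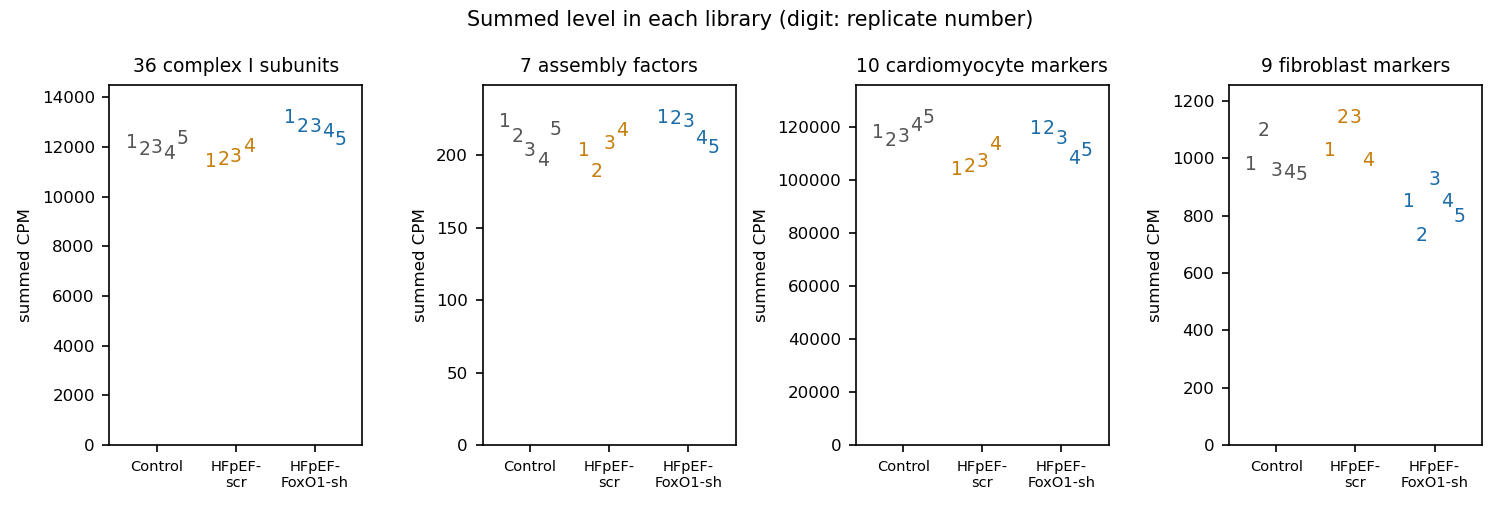
Summed CPM of the 36 complex I subunits, the 7 assembly factors, 10 cardiomyocyte markers and 9 fibroblast markers in each library (digits, replicate numbers; axes from 0). The complex I sums of HFpEF-scr (11393 to 12008) lie below those of HFpEF-FoxO1-sh (12302 to 13193), and the fibroblast sums lie in the opposite order.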

How the data were processed

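Libraries were made from poly(A) RNA of left ventricle with a Swift Biosciences kit, per the labels' protocols. The deposited table holds expected counts per gene, and the submitters' processing notes name Bowtie2 2.1.0, RSEM 1.2.15 and mm10, without annotation, filters or strand setting. Between 15.1% and 16.4% of values per library were not whole, and expected counts were rounded.

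All 14 libraries (13.17 M to 21.25 M counts) entered 1 edgeR 4.0.16 quasi-likelihood fit in R 4.3.3 with 1 coefficient per group, TMM scaling and filterByExpr, and a two-sided F-test per comparison. Adjusted p are Benjamini-Hochberg values over 13588 genes, and a gene was called under 0.05. SE is the absolute log2 fold change over the root of F. CPM use library sizes scaled by TMM. The common dispersion corresponded to a coefficient of variation of 0.0999. The fit had no block for replicate number. The fit was also run on simulated counts, and no result given here rests on that run. No pair of libraries agreed within counting noise (smallest chi-square per degree of freedom 4.272).

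Members follow from the symbol. Genes are named with values if called, if among the 3 largest differences of a comparison, or by identity (Ndufa4, Ndufa4l2, Ndufab1, nuclear core subunits, assembly factors). Of the 45 genes, 1 enters all counts and medians but is not reported here by itself. Other genes named from lists were chosen after their values were seen. Members, lists and markers were chosen with earlier results of these data known. Positions, lengths and overlaps are from GENCODE vM21 (GRCm38) and promoters from RefSeq (GRCm38.p6). Alternatives were DESeq2 1.42.0, limma 3.58.1, other scaling and filters, a fit of 2 groups, a replicate block, an immediate early covariate, a minimum fold and leaving out libraries. Plots used matplotlib 3.10.9 (Python 3.11.15).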

Additional observations from a re-analysis of the deposited data

Results flagged for a closer look

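In each group of 4 or 5 libraries the highest and lowest value of each member, and of 5 library measures, was set against Dixon's 95% critical value. Of 150 checks 6 stood out, 5 of them among the 135 on Nduf genes. Chance gives about 1 in 20, so this is no more than chance gives.

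Ndufa5 was at 318.1 CPM in Control 4, with the nearest control at 352.9. Ndufa6 was at 264.3 CPM in the same library, with the nearest control at 282.6. Ndufa1 was at 191.3 CPM in HFpEF-FoxO1-sh 2, where the nearest library of the group was at 209.0. Ndufaf5 was at 14.66 CPM in HFpEF-FoxO1-sh 5, with the nearest at 17.52. Ndufb9 was at 533.1 CPM in HFpEF-scr 4, the only high value among the Nduf genes, with the nearest at 504.6. The summed fibroblast markers were at 1097 CPM in Control 2, with the nearest control at 976.7.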

How the results depend on the processing

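The calls of the second comparison moved with most settings. Against 6 calls for HFpEF-FoxO1-sh versus HFpEF-scr there were 3 with no filter on low counts, 20 by DESeq2's Wald test, 2 in a fit of the 2 groups alone, 1 with the immediate early score as covariate, 0 without HFpEF-scr 1 and 2 together, and from 0 to 10 when 1 library was left out. Leaving out 1 library gave from 2 to 5 calls against 3 for HFpEF-scr versus Control and from 7 to 10 against 11 for HFpEF-FoxO1-sh versus Control. Tested against a fold of 1.2, no Nduf gene was called in any comparison (0, 0 and 0), with 56, 16 and 218 calls over all genes. The cause was not tested. Of 728 values of single genes with 1 library left out, 646 kept their side of the threshold, 73 lost a call and 9 gained one. Of 754 under the other settings 686 kept it, 52 lost it and 16 gained it. No call changed sign, while 30 and 13 uncalled values did.

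Replicate numbers are not stated to mark a shared animal or day, and libraries of the same number deviated together weakly or not at all (correlations across genes from -0.194 to 0.111). With the number as a replicate block there were 2, 1 and 9 calls in the 3 comparisons. Over all genes the immediate early covariate gave 454 and 272 calls in the first and second comparison against 1001 and 486, the fit of 2 groups alone gave 504 in the first, the block gave 291 and DESeq2 851 in the second, and leaving out HFpEF-scr 1 and 2 gave 560 and 54. Leaving out 1 library gave from 537 to 1106 and from 162 to 668. Depth limits the assembly factors and Ndufa4l2 most, whose counts start at 176 and 162.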
